A study of Mus musculus with 6 samples.

Results

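The genes described here are components of the PI3K, Akt and mTOR pathway, the chain of kinases, lipid kinases and phosphatases that lies downstream of the insulin receptor. They were chosen by name, 40 in all, though with earlier results of these data known. A gene was taken where a probe set of the array carried exactly its symbol and no other, which gave 38 genes on 40 probe sets out of 28853 probe sets on the array. All 38 passed the filter on dim probe sets. The other 2, Gsk3a and Deptor, were present only on probe sets that name further genes and are given apart.

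The study compared mammary epithelial cells of 3 IRfl/fl Cre+ mice with those of 3 IRfl/fl Cre- mice, each mouse on its own Affymetrix MoGene 1.0 ST array. Both groups carry the floxed insulin receptor gene, and all females were mated with CD1 males and sampled on day 13.5 of pregnancy. The Cre+ mice also carry Cre recombinase under the BLG promoter, which belongs to the milk protein gene beta-lactoglobulin. The submitters call the groups "IR diminished" and "Control". Cells were released with collagenase, no sort is named, and the labels give no strain background, litter, age or processing batch. Values are linear RMA intensities, in which arrays were normalized to each other, and a change is the mean log2 intensity in Cre+ minus that in Cre- cells.

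When insulin binds its receptor, adaptor proteins recruit PI3K to the membrane, where it makes the lipid PIP3. PIP3 brings PDK1 and Akt together, and active Akt restrains Gsk3 and the TSC complex, which frees Rheb to switch on mTORC1. In the mammary gland Akt and mTORC1 are known for promoting lipid and protein synthesis as alveolar cells prepare for lactation. The pathway works mainly through phosphorylation and lipid second messengers, which an expression array does not measure.

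The targeted transcript was checked first. Insr had intensities of 55.2, 47.7 and 71.2 in Cre+ cells, against 106, 104 and 122 in Cre- cells, at its brighter probe set, a fall by 0.95 on the log2 scale (limma adjusted p = 0.0231). At the other Insr probe set the fall was by 0.52 (adjusted p = 0.0285). Every Cre+ value lay below every Cre- value at both probe sets. Neither the labels nor the files say whether these probes lie in the deleted part.

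The cells were not of a single type. Markers of alveolar cells were bright on all arrays, with a summed intensity over 12 genes of 13282 to 15203 in Cre+ cells and 21309 to 24565 in Cre- cells, and 11 of the 12 were lower in Cre+ cells in limma. The summed intensity of 10 basal myoepithelial markers was 4995 to 5291 in Cre+ cells and 2730 to 4067 in Cre- cells, with 4 of 10 higher. That of 18 T and B lymphocyte markers was 496 to 1399 in Cre+ cells and 633 to 2356 in Cre- cells, highest on Cre+ 7 and Cre- 1, with none called. Of 12 fibroblast markers 2 were higher, of 13 macrophage and dendritic cell markers 2 were higher, and none was called among 10 endothelial or 9 tested adipocyte markers. General epithelial markers, 10 genes such as Epcam, Cdh1 and Krt8, summed to 3656 to 4675 in Cre+ cells and 4071 to 6622 in Cre- cells. None of them was called, and their mean log2 level on each array is the epithelial covariate used below. All defining markers of these lists were above the filter level except Lep and Adrb3 of the adipocyte list. In such bulk samples fewer cells of a type and less RNA per cell cannot be told apart.

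None of the 38 pathway genes differed between Cre+ and Cre- cells in limma at adjusted p under 0.05, and the smallest adjusted p was 0.0943, for Stk11. Of all 16921 probe sets tested 4.17% passed, 2.03% higher and 2.14% lower in Cre+ cells, and the count of 0 has to be read against that small share. At an unadjusted p under 0.05 there were 6 of the 38 genes (15.8%), against 20% of all probe sets, with 1 higher and 5 lower in Cre+ cells. The unadjusted p-values in the authors' deposited table were under 0.05 for 4 of the 38, against 16.9% of all probe sets, and none passed after Benjamini-Hochberg adjustment, which only 34 of all probe sets (0.201%) did. For 5 of the 38 genes (13.2%) the ranges of both groups were apart, against 25.7% of all probe sets. Of these 1 was higher and 4 were lower in Cre+ cells, against 12.9% and 12.7% of all probe sets.

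The changes were small. The median change of the 38 genes was -0.06 on the log2 scale, beside 0.0037 for all tested probe sets, and the median size of a change without its sign was 0.11, beside 0.08. Changes ran from -0.45 (Pik3r3) to 0.30 (Prkaa1), and 18 genes had a change smaller than 0.1 in size. A missed threshold does not show equal levels, so the 95% intervals from limma were read as well. For 30 of the 38 genes (78.9%, against 86.9% of all probe sets) the interval lay within a 1.5-fold difference either way. The deposited intensities have no value below 18.7, and whether a constant had been added to them is not stated. An added constant would tend to make folds and intervals smaller, though not for every gene. With 16 subtracted before log2, 28 of the 38 intervals (73.7%) lay within 1.5-fold, against 71.2% of all probe sets. On that scale the change of Pik3r3 was -0.56, that of Inpp5d -0.32 and that of Grb14 0.094. As deposited, the interval reached past 1.5-fold for Grb2, Ptpn1, Pik3cd, Pik3cg, Pik3r3, Inpp5d, Prkaa1 and Stk11, and past 2-fold for Inpp5d.

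**Figure D1:**
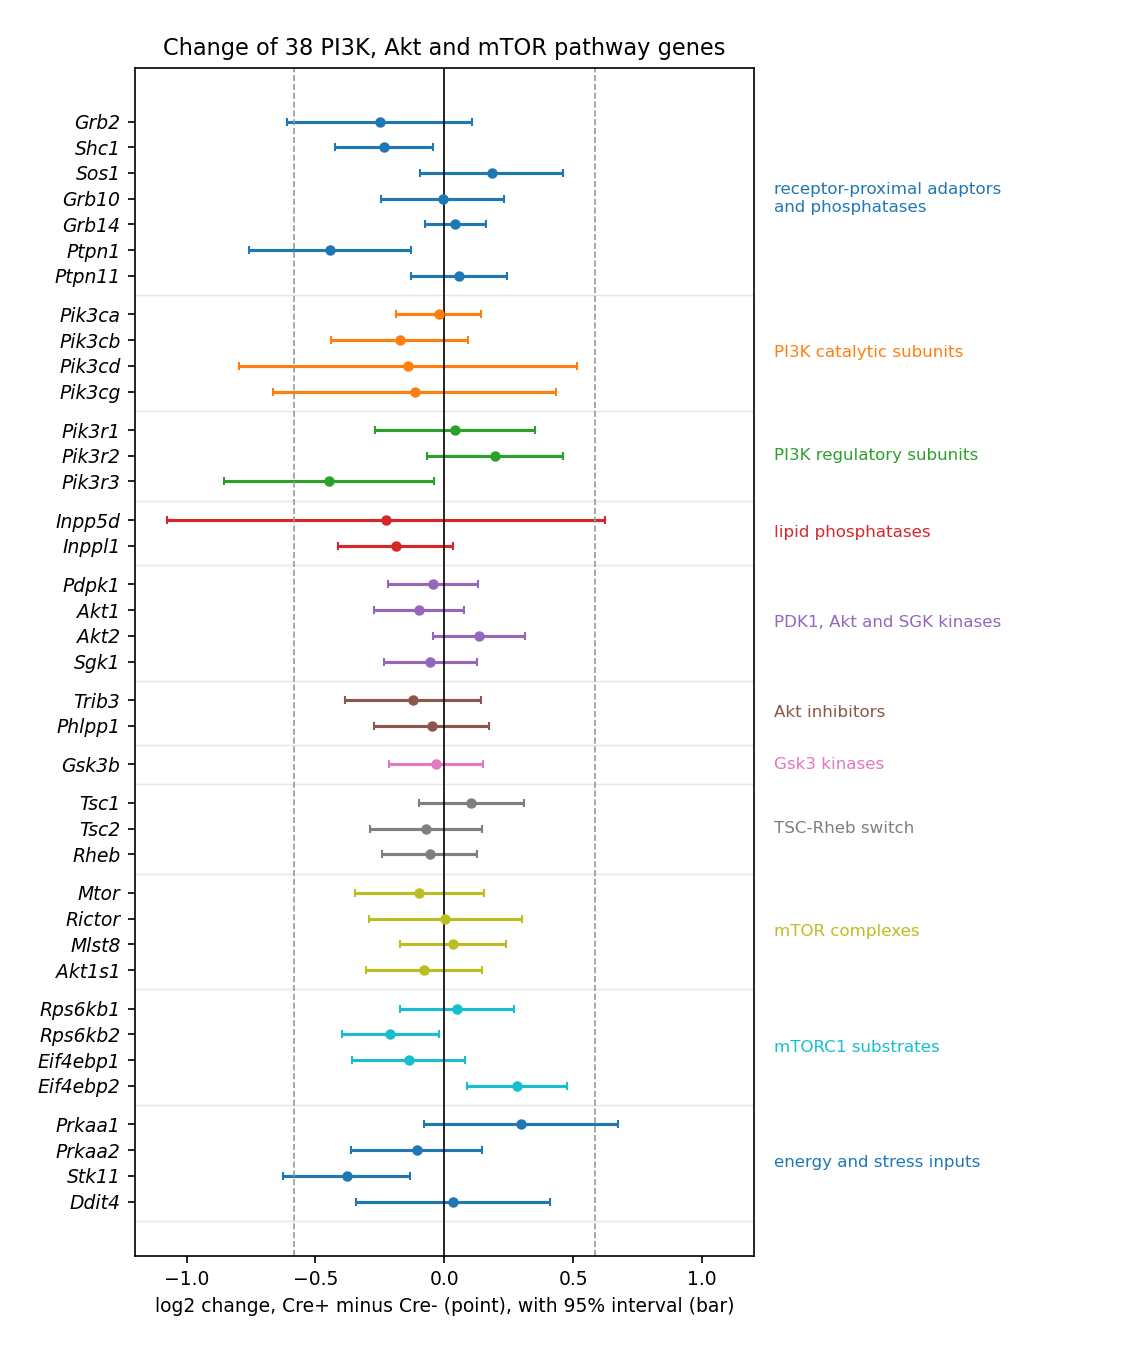
Log2 change (Cre+ minus Cre-, points) and 95% interval from limma (bars) of the 38 genes, ordered by step of the pathway, with 3 arrays a group. Dashed lines mark a 1.5-fold difference. Points lie between -0.45 and 0.30, 30 intervals stay within the dashed lines, and Inpp5d has the widest.

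At the receptor, Grb2, Shc1 and Sos1 form the adaptor chain that links tyrosine kinases to Ras. Shc1 had intensities of 103, 95.9 and 99.7 in Cre+ cells, against 110, 124 and 118 in Cre- cells. The groups did not overlap, and the change was -0.23 (95% interval -0.43 to -0.04, adjusted p = 0.162). Grb2 changed by -0.25 (-0.61 to 0.11), with its highest value, 95.8, on Cre- 1 and the others between 57.6 and 72.7. Without Cre- 1 it was -0.089, and with the epithelial covariate -0.45 (adjusted p = 0.0613), in a range of adjusted p of 0.0613 to 0.744 over 17 alternatives. Sos1, the exchange factor that loads Ras with GTP, changed by 0.18 (-0.09 to 0.46) with overlapping groups. None of these passed the test.

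Among the proteins that act directly on the receptor, Ptpn1 encodes PTP1B, the tyrosine phosphatase that removes phosphate from the insulin receptor. Its intensities were 62.1, 65.8 and 70.4 in Cre+ cells, against 108, 88.6 and 75.7 in Cre- cells. All Cre+ values were lower, but Cre- 4 lay close to them. The change was -0.44 (-0.76 to -0.13), with adjusted p = 0.117, and it did not pass. It passed in 3 of 17 alternative settings, namely with array weights (adjusted p = 0.0484), with the lymphocyte level as a covariate (0.0342) and with the epithelial level as a covariate (0.00808). The range was 0.00808 to 0.288 over all 17. In those 3 settings 1437, 1801 and 1479 of the 16921 probe sets were called, against 706 in the fit above. Grb10 and Grb14, adaptors that bind the active insulin receptor and block its kinase, changed by -0.01 (-0.25 to 0.23) and 0.04 (-0.08 to 0.16). Ptpn11, the phosphatase SHP2 that promotes Ras signalling, changed by 0.06 (-0.13 to 0.24).

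Among the PI3K catalytic subunits, the ubiquitous Pik3ca (p110 alpha) had intensities of 158, 162 and 169 in Cre+ cells, against 169, 163 and 164 in Cre- cells. The groups overlapped, and the change of -0.02 had an interval of -0.19 to 0.14, the narrowest of the 4 subunits. Pik3cb, the other ubiquitous subunit, changed by -0.17 (-0.44 to 0.09), with 147, 131 and 142 in Cre+ cells and 138, 154 and 183 in Cre- cells. Only Cre- 2 and Cre- 4 lay above the Cre+ values.

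The regulatory subunits hold the catalytic subunits at activated receptors. Pik3r1, which encodes p85 alpha and its shorter forms, had intensities of 460, 338 and 417 in Cre+ cells, against 340, 422 and 415 in Cre- cells. The groups covered nearly the same range, and the change was 0.04 (-0.27 to 0.35). Pik3r2 (p85 beta) changed by 0.20 (-0.07 to 0.46), with 84.1, 68.2 and 64.2 in Cre+ cells and 61.6, 61.5 and 64.6 in Cre- cells, so that Cre+ 5 stood above the rest. Without Cre+ 5 the change was 0.081. Pik3r3 (p55 gamma) had 68.4, 56.2 and 80.5 in Cre+ cells, against 73.7, 102 and 105 in Cre- cells. Cre- 1 fell among the Cre+ values while Cre- 2 and Cre- 4 were higher than all of them. Its change of -0.45 (-0.85 to -0.04) was the lowest of the 38 and did not pass (adjusted p = 0.204). Without Cre- 1 and Cre+ 7 together it was -0.74 with adjusted p = 0.0181. This omission removed the lowest Cre- value (73.7) and the highest Cre+ value (80.5), so a larger size was fixed by the choice of arrays. In that setting 954 probe sets were called, against 706 with all arrays. Over the 17 alternatives adjusted p ranged from 0.0181 to 0.446.

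The Akt step showed small changes of both signs. Pdpk1, the gene of PDK1, which phosphorylates Akt in its activation loop, changed by -0.04 (-0.22 to 0.13). Akt1 had intensities of 465, 418 and 416 in Cre+ cells, against 461, 477 and 450 in Cre- cells, a change of -0.10 (-0.27 to 0.08) with Cre+ 5 among the Cre- values. Akt2, the isoform most tied to insulin-stimulated glucose uptake in muscle and fat, had 186, 205 and 197 in Cre+ cells, against 176, 173 and 186 in Cre- cells, a change of 0.13 (-0.04 to 0.31). A second, dimmer Akt2 probe set gave the opposite sign, -0.11 (-0.31 to 0.09), so no direction is given for Akt2. Sgk1, a kinase related to Akt that PDK1 and mTORC2 also activate, changed by -0.05 (-0.23 to 0.12).

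Of the genes that oppose Akt, Trib3, a pseudokinase that binds Akt, changed by -0.12 (-0.38 to 0.14) and Phlpp1, a phosphatase of Akt, by -0.05 (-0.27 to 0.17). Gsk3b, a kinase that Akt inhibits, had 125, 117 and 128 in Cre+ cells and 123, 124 and 132 in Cre- cells, a change of -0.03 (-0.21 to 0.15). The groups overlapped for all 3 genes.

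Tsc1 and Tsc2 encode the complex that keeps the GTPase Rheb inactive. Their changes were 0.10 (-0.10 to 0.31) and -0.07 (-0.29 to 0.15), and that of Rheb was -0.06 (-0.24 to 0.13). Mtor, the kinase shared by both mTOR complexes, had 91.6, 85.8 and 72.2 in Cre+ cells, against 85.8, 86.3 and 93.7 in Cre- cells, a change of -0.10 (-0.35 to 0.15). The lowest value was on Cre+ 7, and the other arrays overlapped. Rictor, the defining subunit of mTORC2, changed by 0.00 (-0.29 to 0.30), and Mlst8, a subunit of both complexes, by 0.03 (-0.17 to 0.24). Akt1s1, which encodes the mTORC1 inhibitor PRAS40, changed by -0.08 (-0.30 to 0.15).

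The mTORC1 substrates held a pair of non-overlapping genes. Eif4ebp2, one of the proteins that bind eIF4E and block cap-dependent translation until mTORC1 phosphorylates them, had intensities of 242, 231 and 210 in Cre+ cells, against 177, 192 and 193 in Cre- cells. Every Cre+ value was higher, and this was the only one of the 38 genes with that pattern. The change was 0.28 (0.09 to 0.47, adjusted p = 0.111), 1.21-fold, and it did not pass. It passed in 1 of 17 alternatives, with the epithelial covariate (0.0397), in a range of 0.0397 to 0.301. With that covariate 1479 of the 16921 probe sets were called, against 706 without it. The related Eif4ebp1 changed by -0.14 (-0.36 to 0.08). Rps6kb2, a kinase of ribosomal protein S6, had 64.7, 67.6 and 71.2 in Cre+ cells, against 75.7, 80.4 and 79.0 in Cre- cells. All Cre+ values were lower, with a change of -0.21 (-0.40 to -0.02, adjusted p = 0.200). Its better known relative Rps6kb1 changed by 0.05 (-0.17 to 0.27) with overlapping groups.

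Energy and stress reach mTORC1 through AMPK and Ddit4. Stk11 encodes LKB1, the kinase that activates AMPK, and had intensities of 180, 170 and 166 in Cre+ cells, against 194, 230 and 250 in Cre- cells. All Cre+ values were lower, and the Cre- values were the more spread. The change was -0.38 (-0.62 to -0.13), 1.30-fold lower in Cre+ cells, with adjusted p = 0.0943. It passed in 4 of 17 alternatives, namely with array weights (0.0367), with the lymphocyte covariate (0.0136), with Cre- 1 left out (0.0329) and with both Cre- 1 and Cre+ 7 left out (0.0369). The range was 0.0136 to 0.258. Those settings called 1437, 1801, 781 and 954 of the 16921 probe sets in turn, against 706 in the fit above. Leaving out Cre- 1 also removed the lowest Cre- value, 194. The AMPK catalytic subunit gene Prkaa1 had 83.3, 102 and 131 in Cre+ cells, against 93.2, 78.7 and 81.8 in Cre- cells, a change of 0.30 (-0.08 to 0.67) with its highest value on Cre+ 7. Without that array it was 0.13. The other catalytic subunit gene, Prkaa2, changed by -0.11 (-0.36 to 0.15). Ddit4 (REDD1), a stress-induced activator of the TSC complex, changed by 0.03 (-0.34 to 0.41).

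**Figure D2:**
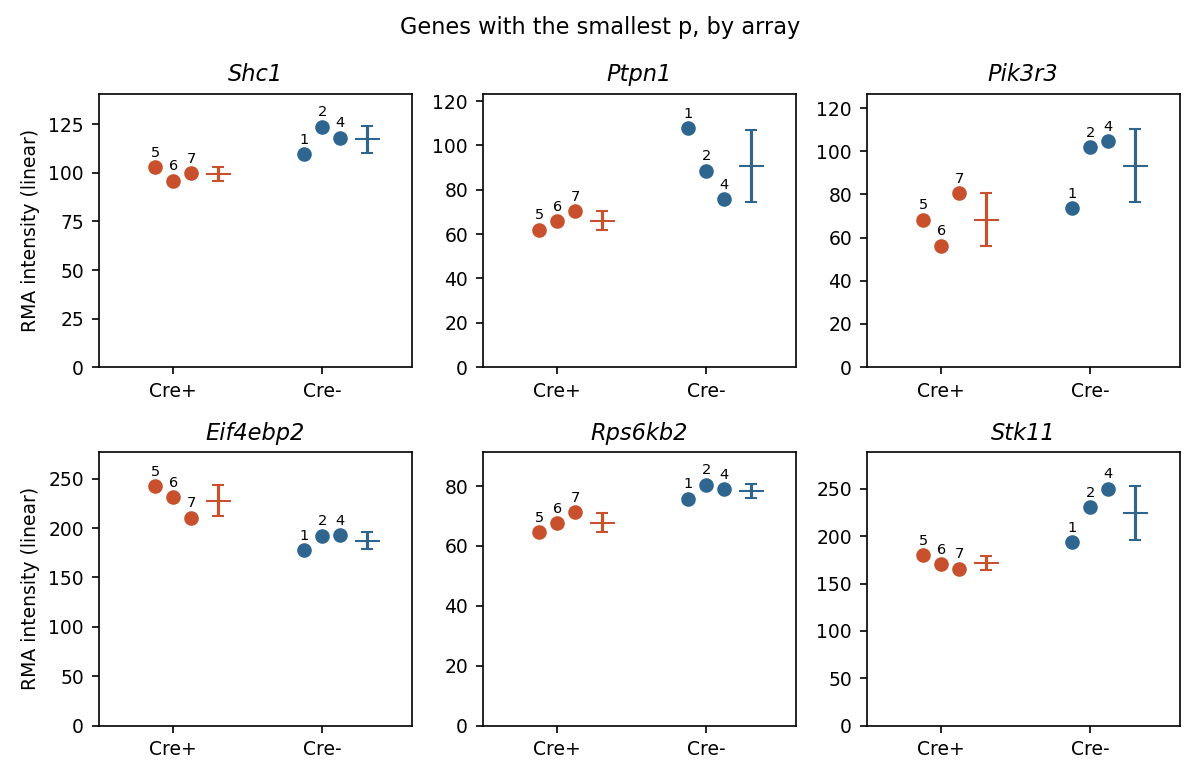
Linear RMA intensity (y axis, from 0) of the 6 genes with an unadjusted p under 0.05, in Cre+ cells (orange) and Cre- cells (blue). Each point is an array with its mouse number, and the bar beside it is the mean with SD (n = 3 each). Eif4ebp2 is higher in every Cre+ array, Shc1, Ptpn1, Rps6kb2 and Stk11 are lower, and Pik3r3 overlaps at Cre- 1.

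Gsk3a and Deptor were measured only together with other names and stand outside the counts above. The probe set named Depdc6 (an older symbol of Deptor, which encodes an inhibitor within both mTOR complexes) and Gm9920 had 150, 127 and 139 in Cre+ cells, against 173, 199 and 238 in Cre- cells. The groups did not overlap, and in a fit that included such probe sets the change was -0.54 (-0.84 to -0.25, adjusted p = 0.0652), beside 3.27% of all 20197 probe sets called in that fit. It did not pass, and signal from either name cannot be told apart. Gsk3a shared a probe set with 9130221H12Rik, where the change was 0.34 (0.10 to 0.58, adjusted p = 0.119), and a dim one with that gene and Zfp526, where it was -0.12 (-0.23 to -0.01, adjusted p = 0.206). The 2 probe sets disagree in sign, so no direction is given for Gsk3a.

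Within a step, members could differ from each other even where none passed alone. The log2 difference between related genes was therefore taken on each array and compared between the groups for 11 of 12 listed pairs, the pair with Gsk3a being left out. Eif4ebp1 relative to Eif4ebp2 stood at -0.41, -0.43 and -0.42 on Cre+ 5, 6 and 7 when set against the Cre- mean, while Cre- 1, 2 and 4 stood at 0.013, 0.074 and -0.087. The difference of changes was -0.42 (95% interval -0.55 to -0.29), and the Cre+ arrays were nearly identical. Intervals of pair differences came from a t distribution with the spread of each pair alone, not from limma, so nearly identical values narrow them. Rps6kb1 relative to Rps6kb2 differed by 0.26 (0.06 to 0.46), and Pik3r1 relative to Pik3r3 by 0.49 (0.14 to 0.84). For these 3 of the 11 pairs the groups did not overlap, beside 25.7% of single probe sets, and no share over other gene pairs was computed. Each had p = 0.1 in an exact two-sided permutation test, which cannot give less with 3 arrays a group, and an adjusted p = 0.367 over the 11 pairs. These pairs include genes already singled out by their own changes and are no separate evidence. For the other 8 pairs, among them Akt1 and Akt2 (-0.23, -0.53 to 0.07), the groups overlapped. The Akt2 level there came from its brighter probe set, and the dimmer one changed with the opposite sign (-0.11).

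**Figure D3:**
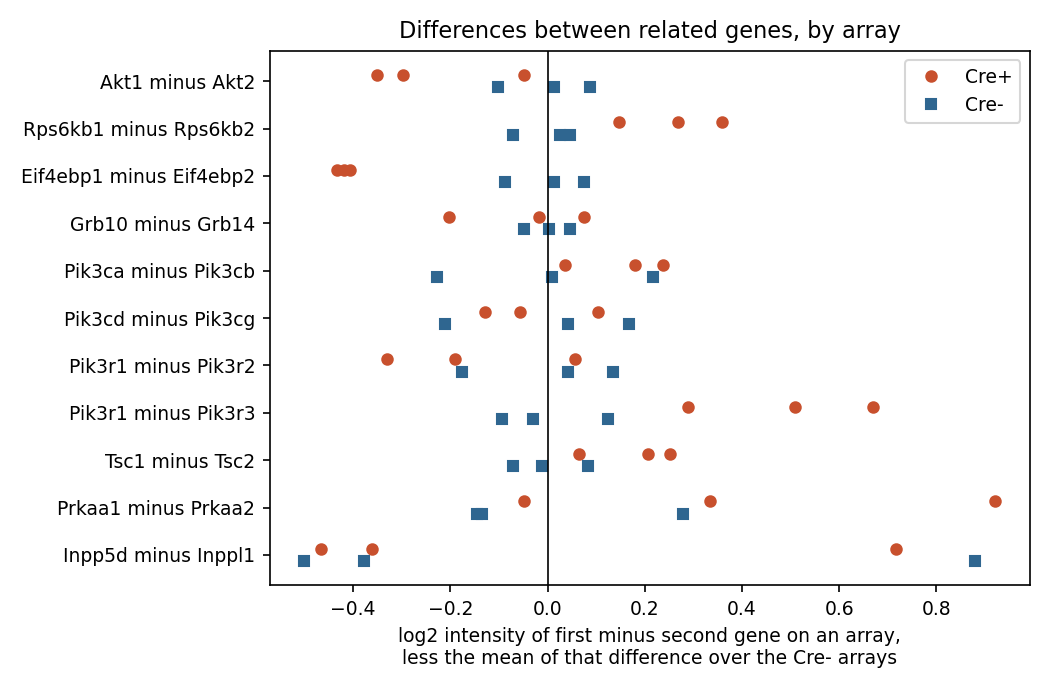
Log2 intensity of the first gene minus that of the second on each array, less the mean of this difference over the Cre- arrays (x axis), for 11 pairs of related genes. Orange circles are Cre+ arrays and blue squares Cre- arrays. The groups separate for Rps6kb1 and Rps6kb2, for Eif4ebp1 and Eif4ebp2, and for Pik3r1 and Pik3r3.

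Inpp5d, Pik3cd and Pik3cg had the 3 largest pooled standard deviations within groups, 0.61, 0.47 and 0.39 on the log2 scale, beside a median of 0.12 over the 38 genes. Inpp5d encodes SHIP1, a 5-phosphatase of PIP3, and Pik3cd and Pik3cg encode p110 delta and p110 gamma. All 3 are known mainly from blood cells. Inpp5d had intensities of 37.4, 37.3 and 70.2 in Cre+ cells, against 93.0, 43.3 and 39.0 in Cre- cells. Pik3cd had 32.0, 32.5 and 46.8 in Cre+ cells, against 62.5, 37.4 and 28.0 in Cre- cells. Pik3cg had 34.4, 36.7 and 45.0 in Cre+ cells, against 62.7, 34.4 and 33.4 in Cre- cells. Each was highest on Cre- 1, with Cre+ 7 next, and the other 4 arrays lay lower.

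The lymphocyte markers followed the same order at the top. Their mean log2 level was 4.76, 5.31 and 6.07 on Cre+ 5, 6 and 7, against 6.71, 5.24 and 5.08 on Cre- 1, 2 and 4. Other marker lists also had their highest level of each group on Cre+ 7 and Cre- 1. These levels were 6.34 and 6.27 for macrophage and dendritic cells, and 6.45 and 6.25 for endothelial cells. For fibroblasts they were 6.62 and 6.35. Having the highest level of each group on Cre+ 7 and Cre- 1 was therefore not particular to lymphocyte markers. The order was another, however, since in each of these other lists Cre+ 7 stood above Cre- 1. For fibroblasts Cre+ 6 (6.59) did so too. Of the lists named here only the lymphocyte markers had Cre- 1 first and Cre+ 7 next, as the 3 genes had. The changes of Inpp5d, Pik3cd and Pik3cg were -0.23 (-1.07 to 0.62), -0.14 (-0.80 to 0.51) and -0.12 (-0.67 to 0.43), with adjusted p of 0.799, 0.843 and 0.849. With the lymphocyte level as a covariate they were -0.0040, 0.025 and 0.025, and without Cre- 1 they were 0.17, 0.17 and 0.18. The epithelial level was lowest on Cre+ 7 in the Cre+ group and on Cre- 1 in the Cre- group. With it as a covariate the changes were -0.87, -0.63 and -0.51 with adjusted p of 0.00273, 0.00497 and 0.0184. That fit called 1479 of the 16921 probe sets, against 706 without a covariate. The call of these 3 genes, and the sign of Pik3cd and Pik3cg, thus depended on the covariate. Inppl1 (SHIP2), the widely expressed relative of Inpp5d, had 131, 122 and 108 in Cre+ cells, against 128, 143 and 140 in Cre- cells, a change of -0.19 (-0.41 to 0.03), with its lowest value on Cre+ 7. Its second, dim probe set changed by -0.07 (-0.18 to 0.03).

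Counted over all members, 10 of 38 genes (26.3%) had their highest Cre+ value on Cre+ 7 and their highest Cre- value on Cre- 1, against 14.3% of all tested probe sets. Beside the 3 genes above these were Grb10, Grb14, Ptpn1, Pik3ca, Rictor, Prkaa1 and Ddit4. Pik3ca for example ran only between 158 and 169. With the lymphocyte level as a covariate, Grb10 changed by 0.027, Grb14 by 0.057, Ptpn1 by -0.38 and Pik3ca by -0.0089. Rictor changed by 0.047, Prkaa1 by 0.37 and Ddit4 by 0.12 in that fit. What part lymphocyte RNA has in the levels of these 7 was not tested.

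**Figure D4:**
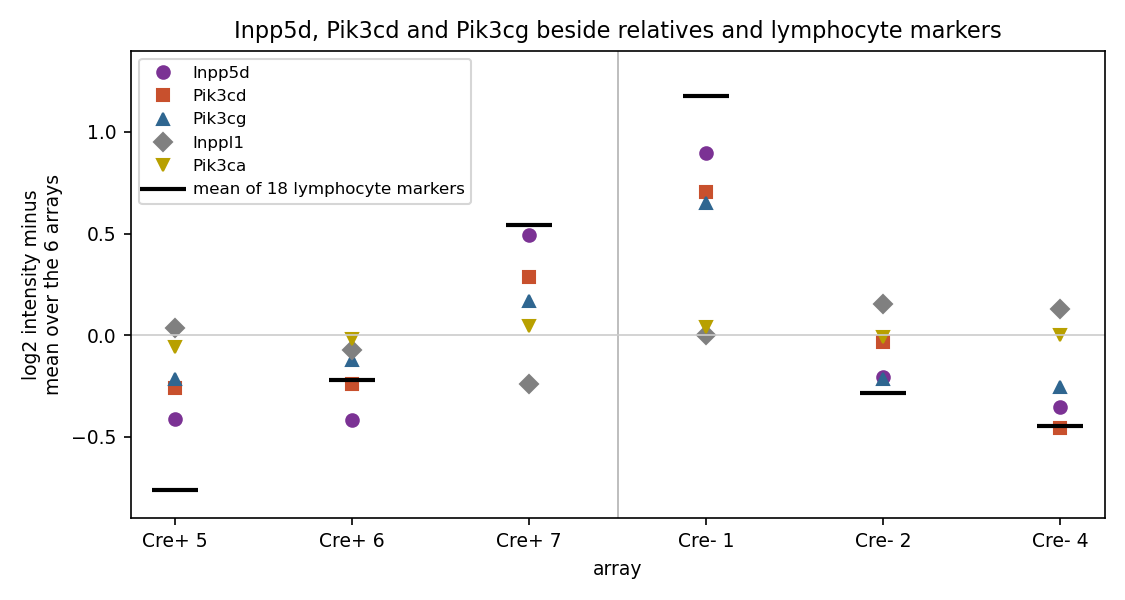
Log2 intensity on each array less the mean over the 6 arrays, for Inpp5d, Pik3cd and Pik3cg, for their relatives Inppl1 and Pik3ca, and for the mean of 18 lymphocyte markers (black bars), with Cre+ arrays left of Cre- arrays. The 3 genes and the markers are highest on Cre- 1 and next on Cre+ 7, while Pik3ca stays near 0.

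Inpp5d, Pik3cd and Pik3cg moved together across arrays, and what part their promoters or the cell content of the samples have in that was not tested. As a description their promoters are shown from RefSeq (GRCm38.p6), 5′ to 3′ on the strand of the gene. Each window runs from 250 bases before to 50 after the most upstream start listed. The windows are chr1:87620062-87620361 on the plus strand, chr4:149698659-149698958 on the minus strand and chr12:32208610-32208909 on the minus strand. Capitals mark GGAAGT or its reverse complement ACTTCC, the core letters bound by ETS factors such as PU.1 of blood cells.
Inpp5d: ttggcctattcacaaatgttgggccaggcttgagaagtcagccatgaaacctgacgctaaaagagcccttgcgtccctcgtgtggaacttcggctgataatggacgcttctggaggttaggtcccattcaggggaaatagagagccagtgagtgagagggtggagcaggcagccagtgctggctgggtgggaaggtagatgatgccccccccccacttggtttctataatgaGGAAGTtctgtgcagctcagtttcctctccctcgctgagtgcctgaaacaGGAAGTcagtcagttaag
Pik3cd: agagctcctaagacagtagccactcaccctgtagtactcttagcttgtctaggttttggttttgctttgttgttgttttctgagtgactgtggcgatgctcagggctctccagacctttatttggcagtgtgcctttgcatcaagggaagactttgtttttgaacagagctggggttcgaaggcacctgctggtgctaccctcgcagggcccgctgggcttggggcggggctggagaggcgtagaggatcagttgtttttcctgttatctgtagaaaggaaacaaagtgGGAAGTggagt
Pik3cg: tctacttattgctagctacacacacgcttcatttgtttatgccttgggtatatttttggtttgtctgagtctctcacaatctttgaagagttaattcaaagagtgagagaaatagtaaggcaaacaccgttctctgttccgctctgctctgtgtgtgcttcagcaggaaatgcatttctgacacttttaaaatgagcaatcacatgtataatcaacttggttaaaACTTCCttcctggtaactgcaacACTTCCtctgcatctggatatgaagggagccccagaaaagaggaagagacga
The letters occur 2, 1 and 2 times in these windows, and TGTGGT or ACCACA, the core of RUNX factors, occurs in none of the 3. On either strand the ETS letters are in 23.8% of 32851 promoters of the same length and in 10 of the 36 pathway genes with a listed promoter (27.8%), and the RUNX letters are in 16.8% of all promoters and in 2 of the 36 (5.56%). The motifs were chosen with the expression pattern known, and a match is a description of the letters, not of a bound site.

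Further genes were taken from textbook lists of the pathway and of neighbouring processes, 170 genes beside the 38, of which 155 were tested. The neighbouring lists were the Ras-MAPK branch, ATF4 targets and glucocorticoid-induced genes. In limma 1 rose and 5 fell in Cre+ cells, 3.87%, beside 4.17% of all probe sets. Their median change was -0.01. Dusp4, a phosphatase that inactivates ERK in the nucleus, had 90.5, 98.6 and 85.2 in Cre+ cells, against 202, 175 and 190 in Cre- cells. It fell by 1.05 (SE 0.09), 2.07-fold, with adjusted p = 0.00412, and it stayed past the threshold whichever array was left out (highest adjusted p = 0.0358). The gene that rose was Spred2, an inhibitor of Ras-Raf signalling, with 81.3, 71.3 and 82.9 in Cre+ cells, against 53.9, 58.6 and 49.2 in Cre- cells, a rise of 0.54 (SE 0.10, adjusted p = 0.0350), and of 0.79 at its other probe set. With any array other than Cre- 1 left out the call at its brighter probe set was lost (highest adjusted p = 0.130). These were the 2 called among 19 genes of the Ras-MAPK branch.

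Inpp5k, a 5-phosphatase of PIP3 known to dampen insulin signalling, was the only called gene among 9 further phosphoinositide phosphatases. It had 147, 141 and 172 in Cre+ cells, against 223, 217 and 240 in Cre- cells, and fell by 0.57 (SE 0.10, adjusted p = 0.0266). That call held without Cre- 1 or Cre+ 7 and was lost without any of the other 4 arrays (highest adjusted p = 0.104). Sesn3, a sestrin, which restrains mTORC1 under stress, was the only called gene among 26 of amino acid sensing at the lysosome and fell by 0.76 (SE 0.11, adjusted p = 0.0190). Leaving out Cre- 2, Cre+ 5 or Cre+ 6 ended that call (highest adjusted p = 0.0824).

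Of 17 further mTORC1 and S6 kinase substrates 2 fell. Lpin1, a phosphatidate phosphatase that mTORC1 phosphorylates, had 124, 105 and 128 in Cre+ cells, against 158, 162 and 160 in Cre- cells, and fell by 0.43 (SE 0.09, adjusted p = 0.0473). Pdcd4, a translation inhibitor that S6 kinase marks for degradation, had 539, 445 and 580 in Cre+ cells, against 790, 755 and 677 in Cre- cells, and fell by 0.51 (SE 0.11, adjusted p = 0.0498). Both calls were lost whichever array was left out (highest adjusted p = 0.160 and 0.162).

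The other lists held no called gene. Among 18 further PI3K subunits and adaptors the smallest p belonged to Pik3c3 (-0.33, adjusted p = 0.0907), the class III lipid kinase of autophagy. Among 6 further mTOR complex subunits it belonged to Rptor (0.35, adjusted p = 0.0619), the defining subunit of mTORC1, with 97.6, 91.3 and 84.7 in Cre+ cells, against 71.1, 71.4 and 71.2 in Cre- cells. The groups did not overlap for Rptor. Among 12 Akt substrates it was Acly (-0.33, adjusted p = 0.0990), among 15 Akt and SGK regulators Ppp2r1b (0.21, adjusted p = 0.215), and among 13 partners of AMPK and LKB1 Cab39 (-0.26, adjusted p = 0.0992), which encodes the scaffold MO25 that activates LKB1. Among 14 targets of the transcription factor ATF4 it was Vldlr (0.59, adjusted p = 0.0580), and among 12 glucocorticoid-induced genes Mt1 (0.48, adjusted p = 0.254). Of 11 settings that kept all arrays or left out Cre- 1 and Cre+ 7 together, Rptor passed in 5, Vldlr in 4, Acly in 3, Cab39 and Mt1 in 1 each, and Pik3c3 and Ppp2r1b in 0. Acly also passed with Cre- 1 alone left out. The lists of ATF4 targets and glucocorticoid-induced genes share Trib3, Ddit4, Eif4ebp1 and Sgk1 with the 38 genes. The falls and the rise above stood beside the lower alveolar and higher basal marker levels given at the start, and the part of those markers in them was not tested.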

How the data were processed

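Total RNA of mammary epithelial cells from 6 mice was measured on 6 arrays. The deposited intensity values were, per the labels, RMA values from Expression Console over core exons. They are linear, from 18.7 to 10919, identical in both deposited tables, and were turned to log2 here. No label or file header gives the software version or annotation. The deposited p-values were, per the file headers, from a t-test, and an equal-variance test on linear values came within 2e-04 of 100% of them. Of those tested here 8 are listed at 0 and were set to 1e-04 for the adjustment. The deposited fold values are ratios of the group means, and 100% were matched to 0.01. The table's group means and errors were not used.

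Of 28853 probe sets, 22984 name a single gene. Of these, 16921 averaged at least 4.48 on the log2 scale (linear 22.4), the 30th percentile of the array, and were tested. Cre+ was compared with Cre- in limma 3.58.1 under R 4.3.3, with variances moderated by eBayes along a trend in intensity. Tests were two-sided, and p-values were adjusted by Benjamini-Hochberg over every tested probe set, with a threshold of 0.05. A gene with several probe sets is represented by the brightest. Symbols of the lists other than the 38 genes were matched through RefSeq synonyms. Single differences between gene pairs used exact permutation over arrays (scipy 1.17.1), and their intervals an equal-variance t distribution without limma. The fit was tested on simulated data. The number of arrays limits precision, and no batch is given. The members, lists and tests were chosen with earlier results of these data known. Every member is named, and of each further list the called genes, or else the gene with the smallest p. Alternatives were other filters, an offset of 16, centring, variance settings, array weights, covariates and omitted arrays. Without Cre- 1 and Cre+ 7 together means that both arrays set apart by lymphocyte markers were omitted.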

Additional observations from a re-analysis of the deposited data

How the results depend on the processing

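Stk11 and Ptpn1 gave the only calls among the 38 genes with array weights or the lymphocyte covariate, Stk11 and Pik3r3 without Cre- 1 and Cre+ 7 together, so that 2 were lower in each. With the epithelial covariate 1 was higher and 4 were lower. When single arrays were left out, the number lower was 0 to 1 and the number higher 0. No gene was called with the other filters, an offset of 16, centring, other variance settings, added probe sets or every probe set counted. The median change ranged from -0.08 to -0.03. Over all 16921 probe sets 706 were called, against 1437 with array weights, 1801 with the lymphocyte covariate and 1479 with the epithelial covariate. Without Cre- 1 and Cre+ 7 together 954 were called. With an array left out it was 46 to 781 (781 when this was Cre- 1, 46 for Cre+ 5, 52 for Cre+ 6, 118 for Cre- 2, 265 for Cre- 4 and 291 for Cre+ 7). The number was 853 at the 50th percentile, 803 without the trend and 777 with robust variances. Unfiltered it was 536 and with probe sets of no or several names 660, and filters change how many are tested. Counts among the 38 genes and the further genes have to be read against these. Of the further genes, 1 rose and 5 fell. With all probe sets unfiltered or with those of no or several names 3 fell, at the 50th percentile 4 rose, without the trend 2, with robust variances 3, without Cre- 1 and Cre+ 7 together 3. With array weights 6 rose and 10 fell, with the lymphocyte covariate 6 and 11, with the epithelial covariate 9 and 11, and with an array left out 0 to 2 and 1 to 4. The sign of some small changes depended on the setting. With the epithelial covariate Akt1s1 was 0.037, Ddit4 -0.21, Mtor 0.0038, Phlpp1 0.020, Prkaa2 0.034, Rictor -0.13 and Rps6kb1 -0.0048. With the lymphocyte covariate Grb10 was 0.027, Pik3cd 0.025, Pik3cg 0.025 and Pik3r1 -0.0031, and with centring Rictor was -0.0039. Without Cre- 1 and Cre+ 7 together Pik3cg was 0.066, Pik3r1 -0.084, Rictor -0.069, Rps6kb1 -0.038 and Sgk1 0.014. With single arrays left out, changes ranged from -0.10 to 0.054 for Grb10, -0.049 to 0.0013 for Pik3ca, -0.41 to 0.17 for Pik3cd, -0.27 to 0.18 for Pik3cg, -0.058 to 0.17 for Pik3r1, -0.53 to 0.17 for Inpp5d and -0.060 to 0.0082 for Gsk3b. They ranged from -0.14 to 0.00058 for Tsc2, -0.17 to 0.0019 for Mtor, -0.12 to 0.11 for Rictor, -0.019 to 0.074 for Mlst8, -0.037 to 0.11 for Rps6kb1 and -0.080 to 0.21 for Ddit4. Of 645 recomputed changes 597 kept sign and call, 36 turned sign and 12 gained a call. The causes were not tested. No paired analysis was made, because the labels give no litter or processing batch by which mice could be paired. Arrays are limited by signal over background, and Grb14 was too dim for the filter at the 50th percentile.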
